A study of Mus musculus with 20 samples.

Results

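Libraries of sorted dermal lymphatic endothelial cells (LECs) of the early night, ZT13, were compared with those of the middle of the night, ZT19, by RNA sequencing. These are 10 of the 20 libraries of the series, 5 per time point, and were taken by the time point in each library's label. All came from skin of wild type C57BL/6 mice at postnatal day 56, which were kept in 12 h of light and 12 h of darkness and for which the labels name no treatment, while the study's methods give C57BL/6N as the strain of its wild type mice. Zeitgeber time (ZT) counts hours from lights on, so that ZT13, the evening, lies 1 h after lights off, and ZT19 is in the middle of the dark phase, when mice are active. Each library was made from a pool of 4 ears from 2 mice. LECs were sorted after enzymatic digestion as CD31+podoplanin+ cells, and purity was checked after every sort according to the study's methods. Blood endothelium carries CD31 alone and some basal keratinocytes and stromal cells carry podoplanin alone, so that a gate for both markers is meant to exclude them. The labels do not say which pools were collected or prepared together, so that p-values measure only the spread between these pools. The other 10 libraries, of ZT1 and ZT7, were used to estimate the spread and to place the levels within the day.

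LECs form the wall of lymphatic vessels, which carry fluid and migrating dendritic cells from skin to lymph nodes, and they guide those cells by chemokines, chemokine scavengers and adhesion molecules. Nearly all mammalian cells hold a clock, in which BMAL1 (Arntl) and CLOCK activate the Per and Cry genes and the genes for REV-ERB and for D-box binding factors such as DBP, whose products act back on transcription. Genes of this loop that peak around dusk in peripheral tissues, such as Dbp and the Per genes, typically decline through the night, while Arntl rises towards dawn.

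Libraries of both time points were unequal in depth and composition. Counts on genes ranged from 4736532 to 42002363 at ZT13 and from 10809823 to 36022409 at ZT19, a difference of 0.90 in mean log2 total (two-sided exact permutation test, p = 0.183, n = 5 per group). Reads on a gene, as a share of reads on a gene or on no gene, made up 20.2, 39.7, 20.1, 22.9 and 79.9% in ZT13 replicates 1 to 5 and 81.6, 64.0, 53.7, 35.0 and 64.9% in ZT19 replicates 1 to 5. This gene-read share was higher by 1.50 on the log2 odds scale at ZT19 (two-sided exact permutation test, p = 0.167, n = 5 per group), and the groups overlapped through ZT13 replicates 2 and 5. Without that library the total and the share both differed, by 1.39 (exact permutation p = 0.0238) and 2.22 (exact permutation p = 0.0238) respectively. Genes with at least 1 count numbered 13309 to 21697 at ZT13 and 12477 to 18768 at ZT19. The part of these library features in the gene differences below was not tested beyond the fits that carry the share as a covariate or leave a library out. The LEC genes Prox1, Lyve1, Flt4, Reln, Mmrn1, Pdpn and Pecam1 were detected in all 10 libraries. Against the label of sorted LECs, markers of basal keratinocytes took a share of the counts near that of LEC genes at ZT19. The 21 markers made up 0.190 to 0.487% of counts on genes at ZT13 and 1.23 to 1.83% at ZT19, beside 1.24 to 1.91% and 0.929 to 1.59% for 23 LEC genes. As normalized counts (scaled to library size, not per gene length) the keratinocyte sums were 23841 to 45739 and 116857 to 191444, and the LEC sums 132889 to 202256 and 117351 to 150557. Ccl21a, the main LEC chemokine, had 0 counts in every library in tables where reads aligned to several places were not assigned to a gene.

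**Figure D1:**
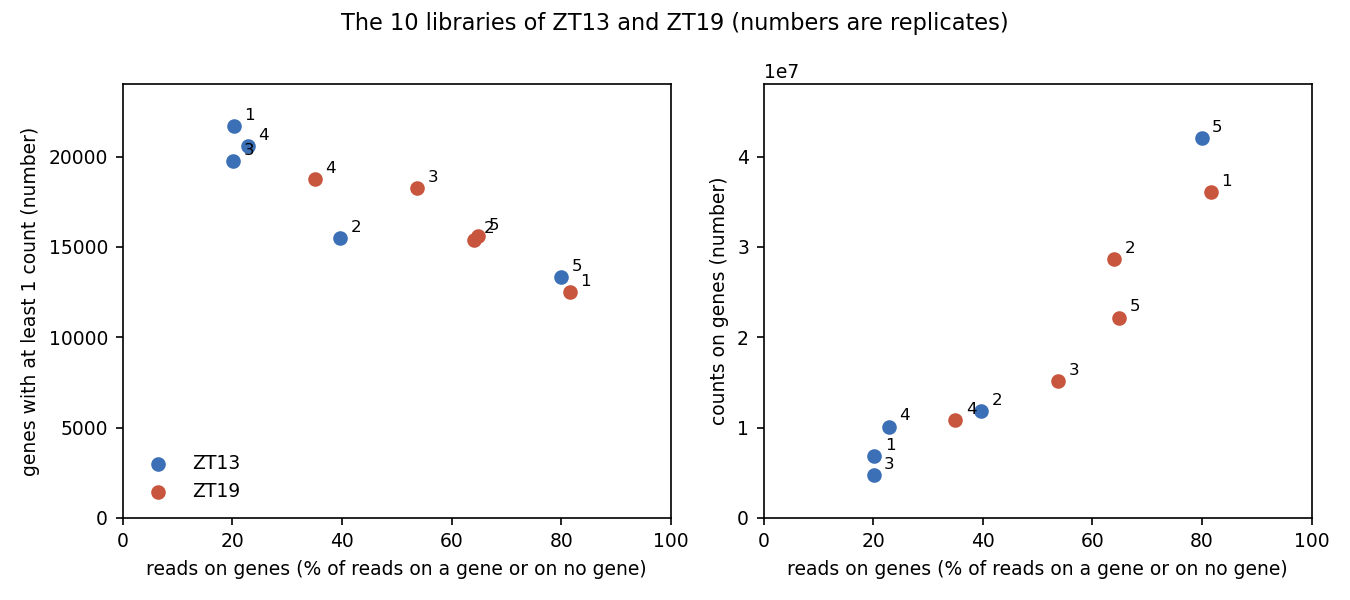
Genes with at least 1 count (left) and counts on genes (right) against the share of reads on genes in percent, for the 5 libraries of ZT13 (blue) and of ZT19 (red), numbered by replicate. ZT13 replicate 5, at 79.9%, lies beside ZT19 replicate 1, at 81.6%, whereas ZT13 replicates 1, 3 and 4 lie between 20.1 and 22.9%.

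Of 19209 genes tested, 113 differed between ZT13 and ZT19 at an adjusted p of 0.05 (edgeR quasi-likelihood F-test with Benjamini-Hochberg adjustment), which is 0.588% of the genes. Of these, 96 (0.5% of the genes tested) were higher at ZT19 and 17 (0.0885%) were lower. All 96 were over 2-fold and 56 over 4-fold higher, with a median log2 fold change of 2.15 (range 1.32 to 6.73), whereas the median over all genes tested was -0.22. In 83 of the 96 every ZT19 library was above every ZT13 library, and in 9 of the 17 every ZT19 library was below, a pattern seen in 1.87% and 0.614% of all genes tested. ZT13 had the lowest of the 4 time-point means in all 96 genes and ZT19 the highest in 94, so that the early night was also below ZT1 and ZT7 for these genes. Calls for higher levels came from well-expressed genes, with 59 and 36 of the 96 in the highest and next-highest of 4 equal bins of genes by level, whereas the lowest bin had a median log2 fold change of -2.56 and no gene that rose.

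The number and direction of calls moved with single libraries and with the scaling. Without ZT13 replicate 5, 853 genes passed, 324 higher and 529 lower, and these held all 113 genes. Without ZT13 replicate 1, ZT13 replicate 4 or ZT19 replicate 5 the counts were 72, 73 and 63. With ZT13 replicate 5 and ZT19 replicate 1 both left out, a choice made after the data had been seen, 105 genes passed, of which 75 were among the 113. Of the calls, 85.0% were higher at ZT19 with TMM scaling, 67.5% with RLE size factors, 66.7% with TMMwsp and 56.7% with upper-quartile factors, and the median of all genes moved from -0.22 to between -0.45 and -0.35. DESeq2 called 1775 genes, 371 higher and 1404 lower, which included 112 of the 113. Its calls were 1.94% (higher) and 7.32% (lower) of its 19171 genes with an adjusted p. An unadjusted p of 0.05 with edgeR was reached by 7.28% (higher) and 11.9% (lower) of all genes tested. With the gene-read share as a covariate this balance turned, to 2083 genes higher and 569 lower, with a median over all genes of 0.22. With only the 10 libraries of ZT13 and ZT19 it turned as well, to 1058 higher and 412 lower of 14820 genes (median 0.04). All 113 genes, or the 104 of them fitted with only the 10 libraries, kept their direction under each of these settings. The changes below are relative to TMM scaling.

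**Figure D2:**
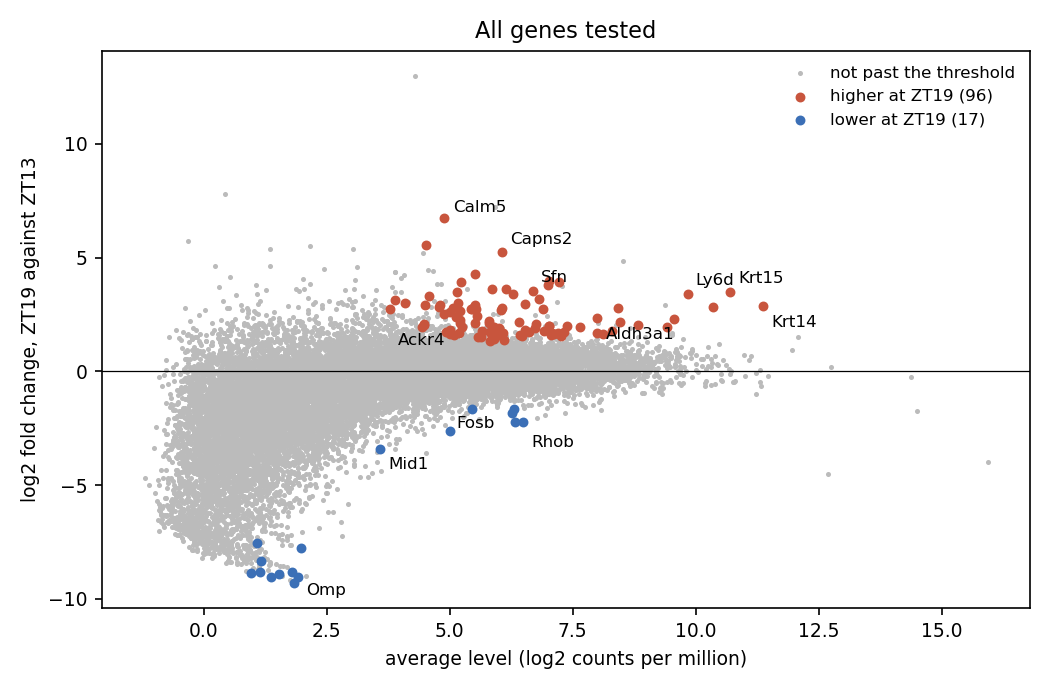
Log2 fold change of ZT19 against ZT13 (y axis) against the average level in log2 CPM (x axis) for the 19209 genes tested. Points in red are the 96 genes higher at ZT19 and points in blue the 17 lower at an adjusted p of 0.05, the latter including a group of rarely detected genes at the lower left, and grey points did not pass.

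Of the 15 higher genes with the smallest p, 4 are on the list of basal keratinocyte markers (Krt15, Sfn, Krt5 and Col17a1), Aldh3a1 is on the glucocorticoid and redox lists and 10 are on none of the 29 lists. Krt15, a keratin of basal keratinocytes and hair follicle stem cells, had normalized counts of 3444, 3087, 4473, 4388 and 2875 in ZT13 replicates 1 to 5 and 64071, 24196, 25759.8, 39685 and 53288 in ZT19 replicates 1 to 5. The groups were far apart, with a 11.3-fold difference (log2 fold change 3.50 ± 0.43, SE, adjusted p = 1.84e-04), the smallest p of the comparison, and its mean at ZT1 was 6666 and at ZT7 18674. The gene lies at chr11:100131758-100135928 on the minus strand, in GRCm38, within the type I keratin cluster. Sfn, which encodes the epithelial 14-3-3 sigma protein, read 198, 163, 284, 291 and 58.7 at ZT13 against 2310.1, 1044, 1409, 4020.3 and 2763 at ZT19. No ZT19 library came near the ZT13 range, and the log2 fold change was 3.54 ± 0.46 (SE, adjusted p = 2.09e-04).

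Krt14 and Krt5 encode the keratin pair that forms the filaments of basal keratinocytes. Krt14 measured 7342, 2936, 11272, 10308 and 4387 at ZT13 against 39291, 36654, 61868, 52602 and 72834 at ZT19, and Krt5 5640.2, 1456, 4681, 3444 and 1261 at ZT13 against 14121, 15842, 38677, 26896 and 22075 at ZT19. Both were lowest in ZT13 replicates 2 and 5 and did not overlap between the time points, with log2 fold changes of 2.86 ± 0.49 and 2.84 ± 0.47 (SE, adjusted p = 0.00368 and 0.00308). Col17a1, the hemidesmosomal collagen XVII that anchors these cells to the basement membrane, read 1714, 314, 1267, 846 and 361 at ZT13 against 10595, 3499, 7985, 6645 and 2434 at ZT19, also without overlap (log2 fold change 2.79 ± 0.47, adjusted p = 0.00368). Aqp3, the glycerol and water channel of epidermis, had 87.6, 20.1, 502, 260.1 and 89.8 at ZT13 against 4004, 1117, 4909, 1962 and 3006 at ZT19. Every ZT19 library again lay above every ZT13 library, here by 3.98 ± 0.65 on the log2 scale (adjusted p = 0.00279).

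Promoters of Krt5 and Aqp3 are shown because both genes are among these 15 and their RefSeq starts lie within 7 bases of the 5′ end of the gene in GENCODE. Each window runs from 250 bases before to 50 bases after the transcription start (RefSeq, GRCm38.p6), at chr15:101712856-101713155 on the minus strand for Krt5 and chr4:41098134-41098433 on the minus strand for Aqp3, with the letters TATAAA in capitals.
Krt5: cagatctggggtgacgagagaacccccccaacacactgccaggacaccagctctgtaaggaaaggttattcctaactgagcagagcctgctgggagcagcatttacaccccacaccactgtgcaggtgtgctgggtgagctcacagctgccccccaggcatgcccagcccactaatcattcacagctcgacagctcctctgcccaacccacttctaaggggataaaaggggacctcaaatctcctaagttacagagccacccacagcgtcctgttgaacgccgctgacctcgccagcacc
Aqp3: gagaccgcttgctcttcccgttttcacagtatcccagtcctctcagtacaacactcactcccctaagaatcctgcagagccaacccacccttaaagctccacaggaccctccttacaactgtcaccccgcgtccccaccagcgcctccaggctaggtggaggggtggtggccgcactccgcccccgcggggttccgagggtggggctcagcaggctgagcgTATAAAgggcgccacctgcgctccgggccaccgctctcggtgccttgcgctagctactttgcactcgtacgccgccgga
The Aqp3 window holds TATAAA 29 bases before the start, and the Krt5 window holds none of the motifs searched. Windows were found for 69 of the 96 higher genes, 82 windows in all, because a gene can have several starts. On both strands TATAAA was in 13.4% of the 82 windows, against 13.6% of all 32851 windows and 9.41% of those of the genes tested. The AP-1 letters TGACTCA were in 9.76%, against 5.20% and 4.48%, and the E-box CACGTG in 8.54%, against 7.15% and 8.71%.

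Aqp3 and the genes described next are the rest of the 15. Ly6d, a surface protein of stratified epithelium, read 1156, 1761, 3586, 2126 and 1109 at ZT13 against 22281, 5117, 14074, 27396 and 35089 at ZT19, without overlap (log2 fold change 3.42 ± 0.55, adjusted p = 0.00235). Sostdc1, a secreted antagonist of BMP and WNT signals known from hair follicles, measured 189, 319, 234, 401 and 94.4 at ZT13 against 1811, 1125, 1461, 3448 and 3383 at ZT19. Its groups were apart by 3.18 ± 0.47 on the log2 scale (adjusted p = 0.00113). Lad1 (ladinin, an anchoring filament protein of the basement membrane), Capns2 (a calpain small subunit) and Urah (hydroxyisourate hydrolase) were higher by 2.73, 5.24 and 3.60. Moxd1, a monooxygenase-like protein, had the smallest standard error of the 15, with 726, 502, 629, 838 and 632 at ZT13 against 2917, 3209, 1907, 2186 and 2909.8 at ZT19 (log2 fold change 1.98 ± 0.29, adjusted p = 0.00113). Tmem45a, Gstm2 (a glutathione S-transferase) and Tuba4a (an alpha-tubulin) were higher by 2.18, 2.71 and 2.98, and the adjusted p of these 6 genes lay between 0.00113 and 0.00368. Aldh3a1, an aldehyde dehydrogenase of surface epithelia, had 2034, 877, 839, 1137 and 754 at ZT13 against 3020.3, 4289, 6135, 6301 and 8529 at ZT19 (log2 fold change 2.33 ± 0.35, adjusted p = 0.00125). Each of these 15 genes passed in all 10 fits that left out 1 library.

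**Figure D3:**
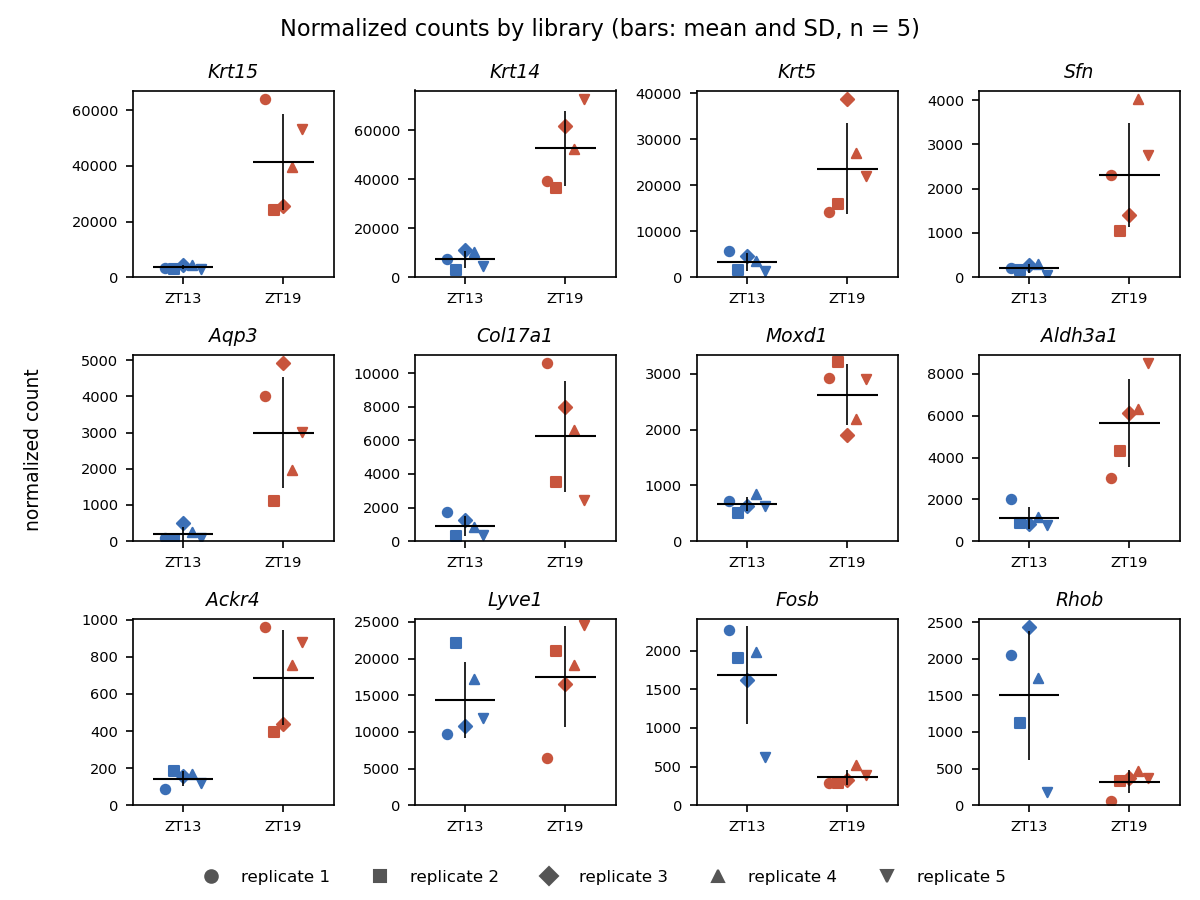
Normalized counts of 12 genes in the 5 ZT13 libraries (blue) and the 5 ZT19 libraries (red), with a marker shape for each replicate, the mean as a horizontal line and the SD as a vertical line. Krt15, Krt14, Krt5, Sfn, Aqp3, Col17a1, Moxd1, Aldh3a1 and Ackr4 do not overlap between the time points, Fosb is lower in every ZT19 library, Rhob overlaps through ZT13 replicate 5, and Lyve1 overlaps throughout.

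As a group, 9 of 21 markers of basal keratinocytes rose, beside 0.5% of all genes tested, and none fell, and their median log2 fold change was 1.90 beside -0.22 for all genes. Besides the 5 described above these were Lamb3 (a laminin-332 chain, 2.93), Perp (a desmosomal tetraspan protein, 2.29), Pkp1 and Pkp3 (plakophilins of desmosomes, 2.10 and 1.78). Pkp1 passed in 14 of 23 settings and in 6 of 10 fits without 1 library. All 21 were above 0 with TMM scaling and 18 or 19 of 21 with the other scalings. Markers that did not pass included Trp63, the transcription factor of the basal layer (1.90, adjusted p = 0.0624), and the integrin chains Itga6 (0.20) and Itgb4 (0.07). The summed level of the 21 markers, given above for ZT13 and ZT19, ranged from 54782 to 95767 at ZT1, between these groups, and from 72903 to 170324 at ZT7, which overlapped ZT19. None of the 21 was at 0 in all 10 libraries.

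Of 21 markers of differentiated epidermis, again beside 0.5% of all genes tested for this and the next 3 lists, 2 rose, Dsg1a (desmoglein 1, 3.91 ± 0.69, adjusted p = 0.00452) and Dmkn (dermokine, 3.79 ± 0.81, adjusted p = 0.0224), with a median of 1.65 over the list. The keratins of the suprabasal layer, Krt10 and Krt1, were at 2.04 (adjusted p = 0.247) and 1.65 (adjusted p = 0.32), and Lor (loricrin) was at -0.57 (adjusted p = 0.877). Of 18 hair follicle and gland genes 3 rose, which were Krt79 (1.96), Elovl3 (a fatty acid elongase of sebaceous glands, 2.99) and Sox9 (1.44). Elovl3 was 3153 in ZT19 replicate 5 and between 245 and 524 in the other ZT19 libraries, and without ZT19 replicate 5 its adjusted p was 0.164. Of 18 desmosome genes 4 rose (Dsg1a, Perp, Pkp1 and Pkp3), and of 31 junction genes 2 rose, including Cdh1 (E-cadherin, 1.75, adjusted p = 0.0475). Dmkn passed in 16 of 23 settings, Cdh1 in 10 of 23 and Sox9 in 7 of 23. Epcam, which marks epithelial cells and Langerhans cells, was higher by 2.60 ± 0.47 (adjusted p = 0.00646). It was the 1 gene of 18 tested on the leukocyte list that rose (beside 0.5% of all genes tested). The pan-leukocyte gene Ptprc was at -1.30 (adjusted p = 0.631).

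Keratinocyte markers thus moved with the time point in these libraries of sorted LECs, and in bulk RNA fewer cells of a type and less RNA per cell cannot be told apart. The mean log2 level of the 21 basal markers ranged from 8.30 to 9.98 at ZT13 and from 10.7 to 11.4 at ZT19, so that within the 10 libraries it did not overlap. With this level as a covariate in the fit over 20 libraries, 1 gene passed and none of the 113, the smallest adjusted p among them being 0.064. The 96 genes then had a median log2 fold change of 1.78 with a median SE of 0.72, beside 2.15 and 0.44 without the covariate, and 110 of the 113 genes kept their direction. The 9 basal markers among the 113 are themselves part of that level, so that their values in this fit are not independent of the covariate. With the gene-read share as a covariate, 54 genes passed, 48 of them among the 113. Of the 96 genes, 14 are on the lists of basal keratinocytes, differentiated epidermis, hair follicle and gland, desmosomes and hemidesmosomes, and 82 are on none of them.

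The higher genes also held enzymes, transcription factors and secreted proteins, of which all named here but Gsto1 and Lgals3 were chosen after their values were seen. Ldha, the lactate dehydrogenase chain of glycolysis, had 1614, 1801, 1341, 1879 and 2443 at ZT13 against 3316, 5619, 7257, 4700.1 and 10070.0 at ZT19 (log2 fold change 1.77 ± 0.36, adjusted p = 0.0161). The groups did not overlap, and Ldhb, its sister chain, was higher by 1.72 (adjusted p = 0.0328). Mdh1 (cytosolic malate dehydrogenase, 1.63), Phgdh (the first enzyme of serine synthesis, 1.91) and Adh7 (an epithelial alcohol and retinol dehydrogenase, 2.03, adjusted p = 0.00452) also rose. Ldhb, Mdh1 and Phgdh passed in 12 of 23, 12 of 23 and 9 of 23 settings, and of the genes described next Ripk4, Gata3 and Sema3c in 15 of 23, 16 of 23 and 15 of 23. Klf5 (2.79), a factor of epithelial progenitors, and Gata3 (1.83), a factor of epidermis and hair follicle as well as of T cells, rose with Ripk4 (2.73), a kinase needed for epidermal differentiation. Wnt10a, a WNT ligand of skin appendages, read 101, 36.1, 27.8, 95.9 and 51.4 at ZT13 against 637, 351, 386, 558 and 409.9 at ZT19 (log2 fold change 2.90 ± 0.51, adjusted p = 0.00399), with no overlap. Igfbp3, which binds insulin-like growth factors, was higher by 2.82 ± 0.51 (adjusted p = 0.00514), and Sema3c, a secreted semaphorin, by 2.93 ± 0.64 (adjusted p = 0.0259). Gsto1, an omega-class glutathione transferase, had 575, 786, 605, 664 and 294 at ZT13 against 956, 1234, 1472, 3708 and 4347 at ZT19 (adjusted p = 0.0162), and Lgals3 (galectin-3) 1011, 1398, 1803, 1479.6 and 1594 at ZT13 against 7924, 3244, 4767, 9298 and 7675 at ZT19 (adjusted p = 0.00782). Both separated the time points, by 2.0 and 2.18 on the log2 scale. The steepest fitted changes belonged to Calm5, a calmodulin-like gene of epidermis, with 1.51, 0, 25.8, 10.7 and 0 at ZT13 against 622, 93.9, 439, 613 and 1653 at ZT19, and to Guca2a (guanylin), with 16.6, 0, 29.8, 13.9 and 0.432 at ZT13 against 527, 56.5, 199.6, 1279 and 596 at ZT19. At ZT13 both were at or near 0 in several libraries, so that their fold changes (6.73 and 5.57) rest on few counts.

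Of 23 LEC genes tested 1 rose and none fell, beside 0.5% and 0.0885% of all genes tested, and 22 did not pass. Their median log2 fold change was -0.44, beside -0.22 for all genes. At an unadjusted p of 0.05, 1 was higher and 2 were lower (4.35% and 8.70%, beside 7.28% and 11.9% of all genes). The gene that rose was Ackr4, an atypical chemokine receptor that scavenges CCL19 and CCL21 and so shapes the gradients dendritic cells follow to lymphatic vessels. Its normalized counts were 84.5, 187, 155, 168 and 121 in ZT13 replicates 1 to 5 and 963, 397, 439, 756 and 882 in ZT19 replicates 1 to 5. Every ZT19 library exceeded every ZT13 library, a 4.8-fold difference (log2 fold change 2.26 ± 0.51, SE, adjusted p = 0.0328), and the means at ZT1 and ZT7 were 206 ± 155 and 535 ± 333 (SD, n = 5). The call held in 13 of 23 settings and in 4 of 10 fits without 1 library, with adjusted p from 0.0014 to 0.178 and log2 fold changes from 1.77 to 2.54 over all settings. With the basal keratinocyte level, which moved with it, as a covariate the log2 fold change was 1.99 (adjusted p = 0.178). The Ackr4 promoter is shown because this gene was called on both the LEC and the promigratory list. The window is at chr9:104126594-104126893 on the minus strand, with TATAAA in capitals 185 bases before the RefSeq start, which lies 290 bases inside the gene as GENCODE has it, and no other motif searched.
Ackr4: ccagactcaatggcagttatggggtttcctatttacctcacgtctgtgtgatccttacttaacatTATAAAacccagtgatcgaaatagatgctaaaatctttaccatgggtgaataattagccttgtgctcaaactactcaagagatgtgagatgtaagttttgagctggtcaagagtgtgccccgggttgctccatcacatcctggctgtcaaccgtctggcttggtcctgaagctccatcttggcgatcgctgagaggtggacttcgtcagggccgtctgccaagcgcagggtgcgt

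Genes that define LECs did not pass the test. Prox1, the transcription factor of lymphatic identity, was 2705, 2139.8, 2735, 2742 and 4489.9 at ZT13 against 1919, 3344, 1739.6, 2141 and 1276 at ZT19, and Lyve1, the hyaluronan receptor used by dendritic cells to enter lymphatic vessels, 9754, 22109.8, 10809.9, 17227 and 11847 at ZT13 against 6424, 20990.0, 16513, 19170.5 and 24562 at ZT19. Both overlapped between the time points, with log2 fold changes of -0.51 ± 0.32 and 0.29 ± 0.43 (SE, adjusted p = 0.394 and 0.744). Flt4 (VEGFR-3), Reln (reelin), Mmrn1 (multimerin 1) and Cldn5 (claudin 5) were at -0.24, -0.54, -0.46 and 0.10, with adjusted p between 0.434 and 0.901. The lowest p after Ackr4 belonged to Maf, a transcription factor, at 3362, 4089, 3679, 3968 and 479.9 at ZT13 against 380.5, 631, 602, 2879 and 1037 at ZT19 (log2 fold change -1.50 ± 0.49, adjusted p = 0.1). Here 4 ZT13 libraries were above every ZT19 library and ZT13 replicate 5 was not. Foxc2, the factor of lymphatic valves, was at -0.76 (adjusted p = 0.142). The summed level of the list, given above, overlapped between the time points.

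The 29 promigratory molecules found are adhesion molecules, chemokines and scavengers for leukocytes at lymphatic vessels. Of 25 that could be tested 1 rose (Ackr4, beside 0.5% of all genes tested) and none fell. Their median of -0.26 was near that of all genes, and 4 were higher and 5 lower at an unadjusted p of 0.05, 16% and 20% of the list beside 7.28% and 11.9% of all genes tested. Cdh5 (VE-cadherin, the adherens junction protein of endothelium) read 3964, 5614, 3372, 4228 and 928 at ZT13 against 631, 975, 953, 3700.5 and 1413 at ZT19. ZT13 replicate 5 lay among the ZT19 values and ZT19 replicate 4 among those of ZT13 (log2 fold change -1.24 ± 0.46, adjusted p = 0.132). Icam1, a ligand of leukocyte integrins, was at 0.97 (adjusted p = 0.164), and Esam, an endothelial junction molecule, at 1.01 (adjusted p = 0.205). F11r, which encodes JAM-A, read 2151, 4542, 2899.8, 3606 and 9345 at ZT13 against 6943, 7558, 4771, 3730.1 and 5313 at ZT19 and overlapped (0.33, adjusted p = 0.65). Jam3 (JAM-C) measured 151, 135, 329, 134 and 213 at ZT13 against 0.255, 78.0, 147, 20.6 and 74.0 at ZT19, and its lowest value, in ZT19 replicate 1, was under 1 (-1.59, adjusted p = 0.259). Pecam1 (CD31) and Pdpn (podoplanin), the markers of the sort, were at -0.26 ± 0.30 and -0.45 ± 0.47 (adjusted p = 0.671 and 0.621). Ccl21a, Ccl21b and Ccl21c had 0 counts, Clec1b did not pass the filter on low counts, and Cd99 was not found among the gene symbols. With DESeq2, 1 of the 25 was higher and 3 were lower, beside 1.94% and 7.32% of all genes.

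Lists of blood endothelium, pan-endothelium, fibroblasts and mural cells gave few calls. Among blood endothelial genes 1 of 18 rose, beside 0.5% of all genes tested, with a median of -0.58 over the list. This gene was Rgcc, a cell-cycle regulator (1.80 ± 0.37, adjusted p = 0.0162). At an unadjusted p of 0.05, 2 of the list were higher and 4 lower (11.1% and 22.2%, beside 7.28% and 11.9% of all genes). Of 15 pan-endothelial genes none passed with edgeR, and 1 was higher and 3 were lower at an unadjusted p of 0.05 (6.67% and 20%). DESeq2 called 2 of the pan-endothelial genes lower (beside 7.32% of all genes). None of 18 fibroblast genes passed with edgeR (2 higher and 2 lower at an unadjusted p of 0.05, 11.1% each), and their median was 0.39. None of 15 mural and muscle genes passed either (1 lower at an unadjusted p of 0.05, 6.67%), with a median of -1.11, which was 1.08 with the gene-read share as a covariate. DESeq2 called 2 fibroblast genes and 1 mural gene lower, beside 7.32% of all genes.

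Of the 17 genes lower at ZT19, 7 were above 1 count in at least 1 ZT19 library and 10 were not. Fosb, an immediate early transcription factor that dimerizes with JUN proteins to form AP-1, had 2271, 1903, 1619, 1977 and 622 in ZT13 replicates 1 to 5 and 283, 293, 328, 516 and 387 in ZT19 replicates 1 to 5. Every ZT19 library was below every ZT13 library although ZT13 replicate 5 was nearer to ZT19, and the gene was 4.65-fold lower (log2 fold change -2.22 ± 0.41, SE, adjusted p = 0.00665). Its means were 884 ± 227 at ZT1 and 491 ± 241 at ZT7 (SD, n = 5), so that ZT13 was the highest of the 4 time points. The Fosb promoter, at chr7:19309996-19310295 on the minus strand, is shown because this gene had the smallest p of those that fell, and it holds none of the motifs searched.
Fosb: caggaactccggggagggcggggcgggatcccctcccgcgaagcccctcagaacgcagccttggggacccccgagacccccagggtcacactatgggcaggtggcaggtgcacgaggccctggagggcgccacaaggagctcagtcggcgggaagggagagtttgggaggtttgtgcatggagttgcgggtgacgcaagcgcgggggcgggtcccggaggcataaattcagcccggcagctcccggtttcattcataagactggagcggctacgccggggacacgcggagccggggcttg

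Pfkfb3, a kinase and phosphatase that drives glycolysis in endothelium, read 1406, 704, 1239.7, 1703 and 2068 at ZT13 against 648, 561, 232, 353 and 199 at ZT19 (log2 fold change -1.84 ± 0.40, adjusted p = 0.0255). No ZT19 library reached the ZT13 range. Nin (ninein, a centrosomal protein) was lower by 1.66 ± 0.36 (adjusted p = 0.0269), also without overlap. Pfkfb3 passed in 15 of 23 settings and Nin in 13 of 23, and in 6 of 10 and 5 of 10 fits without 1 library, and with the transcript length offset Nin was at -0.72 (adjusted p = 0.437). Rhob, a small GTPase of endosomes, had 2050.2, 1125, 2432, 1733 and 174 at ZT13 against 54.4, 336, 377, 464 and 367 at ZT19. ZT13 replicate 5 lay within the ZT19 values, and the call (-2.23 ± 0.53, adjusted p = 0.0424) held in 10 of 23 settings. Nhsl2, an actin regulator of the NHS family, was lower by 1.63 ± 0.37 (adjusted p = 0.0314) and passed in 10 of 23 settings. Mid1, a microtubule-associated ubiquitin ligase, had 155, 153, 153, 1148 and 199 at ZT13 against 7.4, 46.6, 45.2, 59.3 and 13.8 at ZT19. All ZT19 libraries were below all ZT13 libraries, with ZT13 replicate 4 far above the rest (log2 fold change -3.40 ± 0.75, adjusted p = 0.0269). Without ZT13 replicate 4 the log2 fold change was -2.26 and the adjusted p 0.164, and the call held in 15 of 22 settings. 2310015A10Rik, a gene without an assigned name, was lower by 2.62 ± 0.56 (adjusted p = 0.0237).

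The remaining 10 were low genes without detectable RNA in most ZT19 libraries. All but Rbm11 failed the filter on low counts in the fit on only the 10 libraries of ZT13 and ZT19, where 104 of the 113 genes were fitted, 31 genes were higher and 1 was lower. Fam131b, Sbk3, Omp, Usp44, Htr3b, 4930565N06Rik, Bcan and Npas4 had 0 counts in all 5 ZT19 libraries and 124 to 328 counts over the 5 ZT13 libraries. Against a floor of 3 counts over the ZT19 group, counts pooled over each group put them at least 59.6-fold (Npas4) to at least 158-fold (Omp) lower. These bounds carry counting error alone and leave out the spread between pools. Usp44, Htr3b, Bcan and Npas4 had 0 counts also in ZT13 replicate 5, the deepest of the ZT13 libraries. Among the 10 genes, Omp marks olfactory neurons, Bcan encodes a protein of the neural matrix, Htr3b a serotonin receptor and Npas4 an activity-induced neuronal factor. None of the 29 lists holds genes of neurons, so a share of such genes was not tested. The counts varied among the ZT13 libraries. Omp, for example, had 43, 0, 86, 21 and 178 counts in ZT13 replicates 1 to 5, and Bcan had 79, 2, 29, 45 and 0. Rbm11 and Foxl1 had 1 and 2 counts over the ZT19 group. Fam131b passed in 10 of 10 fits without 1 library and Npas4 in 1 of 10. The number of genes detected, given above, was highest in ZT13 replicates 1, 3 and 4, and its part in these calls was not tested.

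None of 25 core clock genes passed at an adjusted p of 0.05 with edgeR, with 2 higher and 4 lower at an unadjusted p of 0.05 (8% and 16%, near the 7.28% and 11.9% of all genes tested), while DESeq2 called 4 lower (beside 7.32% of all genes). Their median log2 fold change was -0.43, beside -0.22 for all genes. Dbp, the PAR bZIP factor that is a direct target of BMAL1 and CLOCK, had normalized counts of 411, 385, 440.3, 482 and 565 in ZT13 replicates 1 to 5 and 258, 238, 193, 107 and 164 in ZT19 replicates 1 to 5. Every ZT19 library was below every ZT13 library, with a log2 fold change of -1.25 ± 0.31 (SE) and an adjusted p of 0.0622. It passed in 6 of 23 settings, with adjusted p from 9.21e-04 to 0.338 over them, and its mean was highest at ZT7, at 766 ± 156 (SD, n = 5).

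In the repressor arm of the clock, Nr1d2 (REV-ERB beta) had 1626, 1731, 1712, 711 and 1200.4 at ZT13 against 448, 786, 1065, 744 and 426 at ZT19 (log2 fold change -1.01 ± 0.32, adjusted p = 0.098), where 1 ZT13 library lay within the ZT19 range. Per1 read 2218, 1037, 1263, 1039 and 385 at ZT13 against 428, 522, 776, 614 and 275 at ZT19, and ZT13 replicate 5 was below most ZT19 libraries (log2 fold change -1.18 ± 0.41, adjusted p = 0.114). Per3 was at 1874, 2660.5, 1479.7, 1196 and 1509 at ZT13 against 884, 1206, 1517, 903 and 954 at ZT19, with some overlap (log2 fold change -0.67 ± 0.30, adjusted p = 0.208). Per2 and Nr1d1 (REV-ERB alpha) were at -0.61 ± 0.51 and -0.18 ± 0.33 (adjusted p = 0.523 and 0.789), with overlapping libraries. Cry1 and Cry2, the cryptochromes that repress with PER proteins, were at 0.79 ± 0.45 and 0.19 ± 0.40 (adjusted p = 0.34 and 0.823).

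In the activator arm, Arntl (BMAL1) had 116, 12.7, 194, 59.7 and 177 at ZT13 against 369.8, 489.8, 364, 181 and 349 at ZT19. Its groups overlapped only between ZT19 replicate 4 and ZT13 replicate 3, and the log2 fold change was 1.65 ± 0.53 (SE, adjusted p = 0.0974). Rora, a nuclear receptor that activates Arntl, measured 403, 226, 785, 639 and 273 at ZT13 against 1217, 553, 1019, 1024 and 1366 at ZT19 (log2 fold change 1.16 ± 0.41, adjusted p = 0.118), again with overlap. Clock itself was at -0.40 ± 0.35 (adjusted p = 0.547), and Tef, a relative of Dbp, at -0.57 ± 0.32 (adjusted p = 0.331). The other 13 members lay between -1.87 (Rorb) and 0.56 (Timeless), with adjusted p of 0.37 or more.

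Promoter windows were found for 20 of the 25 clock genes, 29 windows in all. E-box letters CACGTG were in 6 of them (20.7%, against 7.15% of all windows and 8.71% of those of the genes tested), and D-box letters TTATGTAA in 2 (6.90%, against 0.938% and 0.717%), on either strand. A gene can have several windows, so these are not independent. Per1 and Per3 are printed because they carry these motifs, the sites bound by BMAL1 and CLOCK and by DBP and TEF in other tissues. The Per1 window at chr11:69098699-69098998 on the plus strand has CACGTG in capitals, 166 bases before a start that lies 3732 bases inside the gene as GENCODE has it, and a second RefSeq window of Per1, at chr11:69099902-69100201, holds none of the motifs. The Per3 window at chr4:151044616-151044915 on the minus strand has TTATGTAA in capitals at 205 and 158 bases before the start.
Per1: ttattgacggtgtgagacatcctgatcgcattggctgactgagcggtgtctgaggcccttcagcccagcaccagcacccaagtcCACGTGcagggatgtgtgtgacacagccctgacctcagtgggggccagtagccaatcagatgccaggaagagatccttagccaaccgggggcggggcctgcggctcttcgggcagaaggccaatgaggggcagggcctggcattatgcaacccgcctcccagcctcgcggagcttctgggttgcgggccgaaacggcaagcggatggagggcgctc
Per3: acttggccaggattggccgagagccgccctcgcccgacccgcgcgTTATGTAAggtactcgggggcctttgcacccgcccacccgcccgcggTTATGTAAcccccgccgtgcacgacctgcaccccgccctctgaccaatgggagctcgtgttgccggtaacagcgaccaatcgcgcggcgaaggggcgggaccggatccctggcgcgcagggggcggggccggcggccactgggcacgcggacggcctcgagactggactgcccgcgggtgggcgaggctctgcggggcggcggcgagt

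Glucocorticoids rise in mice around the onset of darkness, and genes that respond to them were followed with other clock outputs. Of 26 such genes 1 rose (Aldh3a1, described above, beside 0.5% of all genes tested) and none fell. At an unadjusted p of 0.05, 6 were lower, 23.1% of the list beside 11.9% of all genes. The list median of -0.22 equalled that of all genes. The summed level of the list was 48897 to 98577 at ZT13 and 57980 to 116024 at ZT19. Ddit4 (REDD1, an inhibitor of mTORC1) had 2740.1, 1279, 3072, 2756 and 1815 at ZT13 against 233, 804, 989, 746 and 318 at ZT19. Errfi1 (MIG6, an inhibitor of EGFR) had 3089, 2744, 3197, 3124 and 3484 at ZT13 against 791, 2036, 1094, 1617 and 1455 at ZT19. In both, every ZT19 library was below every ZT13 library, with log2 fold changes of -1.92 ± 0.48 and -1.16 ± 0.31 (SE, adjusted p = 0.0594 and 0.0693). Zbtb16 (PLZF) read 1448, 1726, 942, 1207 and 1442 at ZT13 against 276, 616, 449, 807 and 722 at ZT19, likewise without overlap (-1.24 ± 0.37, adjusted p = 0.0911). Fkbp5, the co-chaperone of the glucocorticoid receptor, read 1249, 1401, 1101, 1725 and 2296 at ZT13 against 876, 1218, 681, 313 and 699 at ZT19 (-1.04 ± 0.32, adjusted p = 0.0911), and only ZT19 replicate 2 reached into the ZT13 range. Cebpd, a bZIP factor, was at -0.96 (adjusted p = 0.0978). With the basal keratinocyte level as a covariate Fkbp5 was at -0.22 and Cebpd at -0.13 (adjusted p = 0.829 and 0.9). Ddit4, Errfi1 and Zbtb16 were then at -2.80, -1.22 and -0.76. None of these 5 passed with TMM scaling. With RLE, TMMwsp or upper-quartile scaling 2 to 3 members of the list were called lower, beside 38, 42 and 52 of all 19209 genes tested. DESeq2 called 6 members lower, beside 7.32% of all genes.

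Of 24 immediate early genes, 1 fell (Fosb) and none rose, beside 0.0885% and 0.5% of all genes tested, and the median was -0.35. At an unadjusted p of 0.05, 4 were lower and 1 was higher (16.7% and 4.17%, beside 11.9% and 7.28% of all genes). Fos, the closest relative of Fosb, had 9328, 14585, 9156, 14370.4 and 15529 at ZT13 against 4712, 8716, 7346, 5308 and 5887 at ZT19. All ZT19 libraries were below all ZT13 libraries, but the difference did not pass (log2 fold change -0.98 ± 0.35, adjusted p = 0.124). Zfp36 (tristetraprolin, which destabilizes cytokine mRNAs) was at -0.95 ± 0.31 (adjusted p = 0.102). Myc differed from these in sign, with 771, 416, 851, 902 and 1285 at ZT13 against 2699.5, 1767, 1746, 1669 and 2547 at ZT19. Its ZT19 libraries were all above those of ZT13 (log2 fold change 1.30 ± 0.36, adjusted p = 0.0828).

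**Figure D4:**
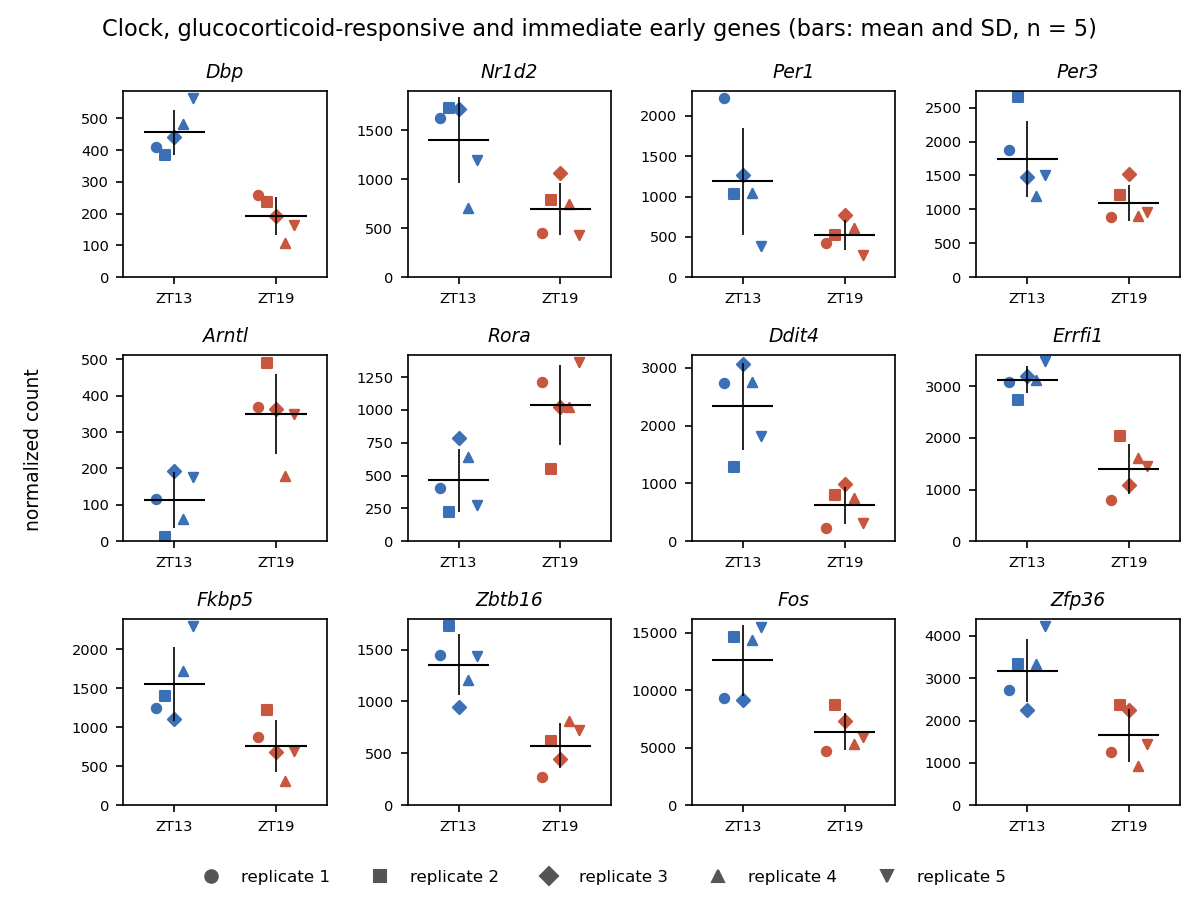
Normalized counts of 12 clock, glucocorticoid-responsive and immediate early genes in the 5 ZT13 libraries (blue) and 5 ZT19 libraries (red), with a marker shape for each replicate, the mean as a horizontal line and the SD as a vertical line. Dbp, Ddit4, Errfi1, Zbtb16 and Fos are lower in every ZT19 library than in any ZT13 library, and none of the 12 genes passed an adjusted p of 0.05.

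Several lists had most of their members on the same side of 0 without a member that passed. None of 34 cell cycle genes passed with edgeR, but 33 had a log2 fold change above 0, and the list median was 1.18. At an unadjusted p of 0.05, 18 were higher (52.9%, beside 7.28% of all genes tested). Among all genes that share rose with level. In the highest of 4 equal bins by level 778 of 4747 genes were higher and 224 lower, with a median of 0.24. In the lowest bin 7 of 4748 were higher and 1390 lower, and no list was matched for level. Pcna, the sliding clamp of DNA replication, had 485, 684, 496, 732 and 706 at ZT13 against 1179, 1177, 1406, 1345 and 1942 at ZT19. No library overlapped, and the log2 fold change was 1.18 ± 0.29 (SE, adjusted p = 0.0525). Cdc20, the activator of the anaphase-promoting complex, was at 1.59 ± 0.40 (adjusted p = 0.062) and Ccnb1 (cyclin B1) at 2.66 ± 0.72 (adjusted p = 0.0759), while Mki67 was at 0.12 (adjusted p = 0.891). Under the other scalings 30 or 31 of the 34 were above 0, and DESeq2 called 3 higher (beside 1.94% of all genes). With the basal keratinocyte level as a covariate the list median was 1.20.

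Among heat shock and cold-inducible genes none of 20 passed with edgeR, 19 were above 0 (15 to 18 with the other scalings), and the median was 0.67. At an unadjusted p of 0.05, 7 were higher (35%, beside 7.28% of all genes tested). DESeq2 called 2 higher (beside 1.94% of all genes). Rbm3, a cold-inducible RNA-binding protein, had 978, 1040.2, 861, 1654 and 1593 at ZT13 against 1977, 2635, 2784, 2259.8 and 5249 at ZT19. Its values did not overlap between the time points (log2 fold change 1.28 ± 0.34, adjusted p = 0.0702). Ahsa1, an activator of HSP90, was at 1.17 (adjusted p = 0.0912), and Hspd1, the mitochondrial chaperonin, at 0.99 (adjusted p = 0.0961).

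Of 24 redox and detoxification genes 2 rose, Aldh3a1 and Gsto1 (beside 0.5% of all genes), 10 were higher and none lower at an unadjusted p of 0.05 (41.7%, beside 7.28%), and 22 of the 24 were above 0, with a median of 0.79. Prdx6, a peroxiredoxin, was next by p, with 734, 2019, 988, 1535 and 1257 at ZT13 against 2083, 2694, 2608, 3952 and 5236 at ZT19 (log2 fold change 1.34 ± 0.38, adjusted p = 0.085). It separated the time points without passing. None of 21 lipid-handling genes passed with edgeR (6 higher and 1 lower at an unadjusted p of 0.05, 28.6% and 4.76% beside 7.28% and 11.9%), with Plin2 (perilipin 2) at 1.45 ± 0.38 (adjusted p = 0.0677) and Apoe at 1.50 ± 0.44 (adjusted p = 0.0911). Among 22 chemokines and cytokines none passed with edgeR (7 higher and 3 lower at an unadjusted p of 0.05, 31.8% and 13.6% beside 7.28% and 11.9%). DESeq2 called 4 higher and 1 lower, beside 1.94% and 7.32% of all genes. Cxcl14, a chemokine of epithelium, was at 2.33 ± 0.68 (adjusted p = 0.0911), and Il33, an alarmin of endothelium and epithelium, at 2.16 ± 0.68 (adjusted p = 0.0961). With the basal keratinocyte level as a covariate Cxcl14 was at 0.49 and Il33, with its sign changed, at -0.33 (adjusted p = 0.832 and 0.866). Of 9 galectins 1 rose (Lgals3), and of 22 hemidesmosome and basement membrane genes 2 rose (Col17a1 and Lamb3), beside 0.5% of all genes tested. At an unadjusted p of 0.05, 2 galectins were higher and 1 was lower (22.2% and 11.1%). Of the hemidesmosome and basement membrane genes 2 were higher and 1 was lower (9.09% and 4.55%, beside 7.28% and 11.9% of all genes).

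The other 7 lists had no member past the threshold with edgeR. Their counts at an unadjusted p of 0.05 stand beside 7.28% (higher) and 11.9% (lower) of all genes tested. On this measure 1 integrin of 26 was higher and 6 were lower (median -0.45). Of 17 VEGF and angiopoietin genes 2 were lower (median -0.51), of 16 Notch genes 1 was lower (median -0.43), and of 24 BMP and TGF-beta genes 2 were higher and 3 lower (median -0.40). Among antigen presentation genes 2 of 17 were higher and 1 was lower (median -0.08), among interferon-stimulated genes 1 of 22 was higher and 4 were lower (median -0.65), and among Schwann cell and melanocyte genes 1 of 12 was lower (median -0.09). DESeq2 called none of these genes higher and 1 to 5 of each list lower, the latter among the integrins, beside 7.32% of all genes.

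**Figure D5:**
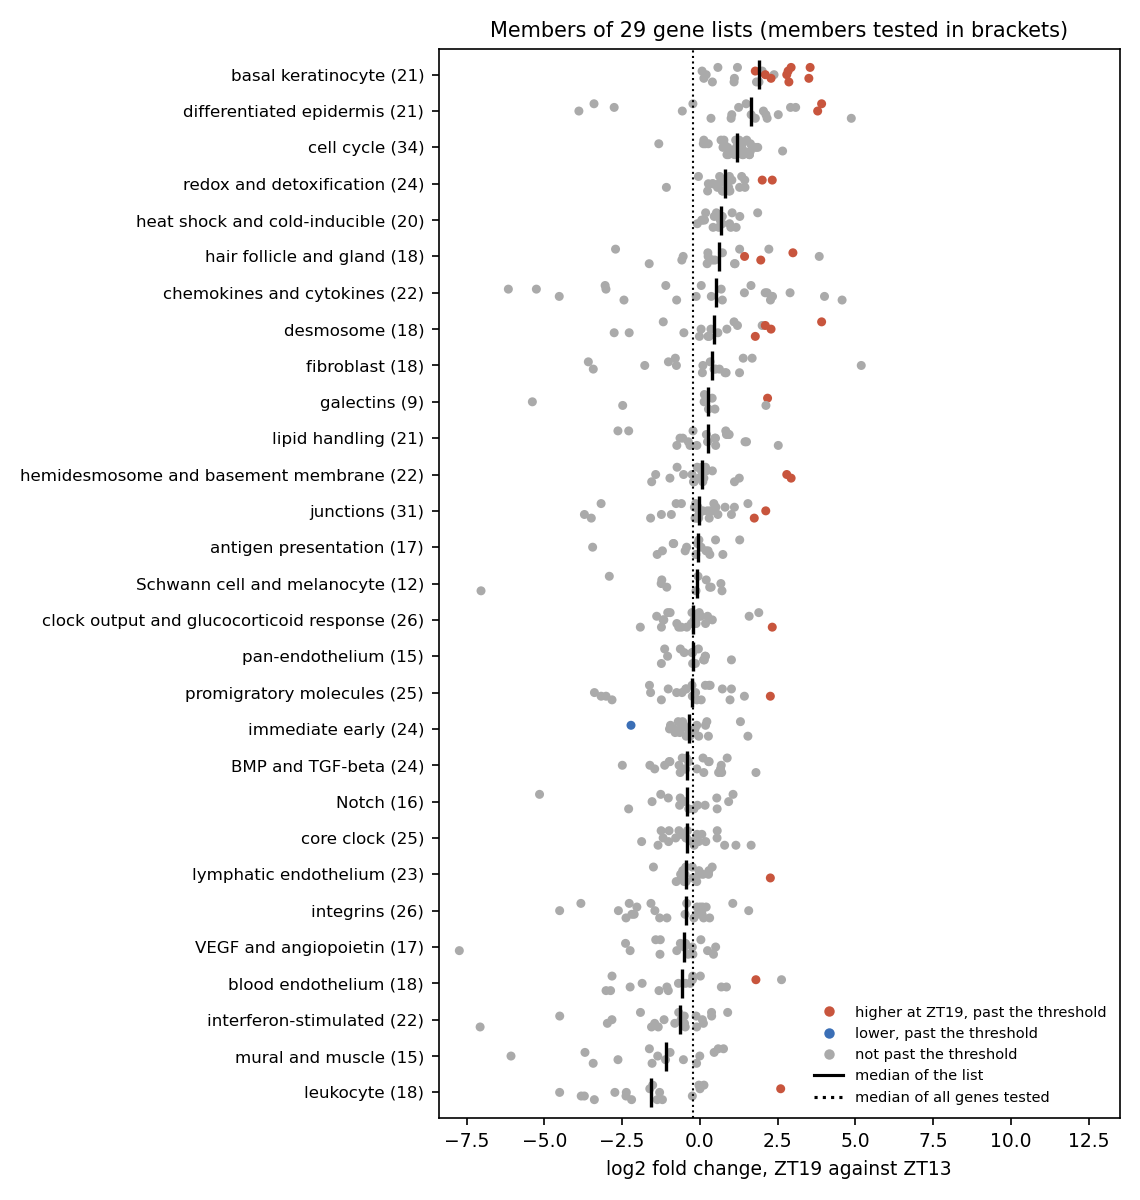
Log2 fold change of ZT19 against ZT13 (x axis) for the tested members of 29 gene lists (rows, number of members in brackets), with the list median as a black bar and the median of all genes, -0.22, as a dotted line. Basal keratinocyte (median 1.90), differentiated epidermis (1.65) and cell cycle (1.18) genes lie furthest to the right, and mural (-1.11) and leukocyte (-1.57) genes furthest to the left. The summed normalized counts of the mural list overlapped, at 284 to 2258 at ZT13 and 423 to 1366 at ZT19. Those of the leukocyte list did so too, at 610 to 1432 and 724 to 1528.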

How the data were processed

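RNA of sorted dermal LECs was amplified to full-length cDNA and sequenced in single-end reads of 100 nt. Per the labels and the study's methods, the authors mapped reads to mm10 with STAR, counted them per gene with HTSeq-count 1.0.0 and deposited raw counts per gene symbol, without normalization; they used DESeq2 (Galaxy version 2.11.40.6) themselves. The gene annotation and strand setting are not given in the sources used here. Reads on no gene, ambiguous, unaligned or aligned to several places were deposited as separate totals, made up 47.5 to 92.6% of all reads in the 10 libraries, and were left out of library sizes and tests.

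Counts of all 20 libraries, grouped by the time point in their titles, were fitted with edgeR 4.0.16 in R 4.3.3 (TMM scaling, quasi-likelihood F-test, genes with low counts in every time point left out, ZT19 minus ZT13, Benjamini-Hochberg over 19209 genes, threshold 0.05). Any adjusted p without another tool's name is from this fit. For normalized counts, each count was divided by its library's TMM-adjusted size over the geometric mean of all 20 such sizes, and log2 values used a pseudocount of 1. Library totals and shares were tested by exact permutation, two-sided, over 252 assignments, with a smallest possible p of 0.00794. A gene with 3 counts makes up 7.14e-06 to 6.33e-05% of a library, a limit from counting error alone, as amplified cDNA carried no molecular identifiers. Gene positions came from GENCODE M21 (GRCm38, the build of mm10), with a length for 98.4% of the symbols. Promoters came from RefSeq (GRCm38.p6) and were searched on both strands for the E-box (CACGTG), the D-box (TTATGTAA), the AP-1 site (TGACTCA), the cAMP response element (TGACGTCA), the TATA box (TATAAA) and the palindromic glucocorticoid response element.

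On simulated counts for this comparison, edgeR found 123 of 197 genes changed by 3 on the log2 scale and called 3 unchanged genes among 16237 tested. DESeq2 1.42.0 found 150 of 200 and called 56 unchanged genes among 19209.

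Genes named are the 15 higher and 15 lower genes with the smallest adjusted p, the core clock and promigratory lists, and of 27 other lists the members that passed and the 3 with the smallest p. Not all of these are described, and defining markers of a list (such as Prox1, Trp63, Krt10, Lor, Ptprc and Mki67) and a few other members (Cebpd, Fkbp5, Zbtb16, Fos, Itga6, Itgb4, Bcan and Npas4) were named beside the rule after their values were seen, as were those the text says so of; a member of the junction list is not reported here. The comparison, the 29 lists and the tests were chosen with earlier results of these data known. Alternatives were DESeq2, 3 other scalings, 2 filters, only the 10 libraries, a replicate block, the share of reads on genes or the basal keratinocyte level as covariate, a transcript length offset, thinned counts and leaving out each library.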

Additional observations from a re-analysis of the deposited data

Results flagged for a closer look

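Log2 values of the genes named were examined for a library far from the other 4 of its time point, by the gap to its neighbour divided by the range (Dixon's ratio, 95% critical value 0.71). Of 212 sets of 5 libraries 14 exceeded it, and about 1 in 20, or 10.6, is what chance gives. ZT13 replicate 5 was the lowest for Fosb (ratio 0.739), Fam131b (0.878), Htr3b (0.790), Cdh5 (0.717) and Maf (0.909). ZT13 replicate 2 was the lowest for Ldhb (0.759) and Adh7 (0.814) and the highest for Pdpn (0.812), and ZT13 replicate 4 was the highest for Mid1 (0.868). At ZT19, replicate 3 was the lowest for Nin (0.790) and the highest for Rbm11 (1), where it alone had a count. Replicate 1 was the lowest for Rhob (0.848), replicate 2 the lowest for Klf5 (0.784) and replicate 4 the highest for Pdpn (0.726).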

How the results depend on the processing

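The 113 calls became 1775 with DESeq2, 32 with only the 10 libraries of ZT13 and ZT19, 58 with the replicate block, 54 with the gene-read share as covariate and 1 with the basal keratinocyte level as covariate, and 63 to 853 when 1 library was left out. The 3 other scalings, both filters, the length offset and thinned counts gave 113 to 129, of which 96 (RLE), 100 (TMMwsp), 85 (upper-quartile), 110 (no filter), 113 (stricter filter), 78 (length offset) and 103 (thinned counts) were among the 113. Splits into higher and lower were 79 and 38 with RLE, 84 and 42 with TMMwsp, 68 and 52 with upper-quartile factors and 371 and 1404 with DESeq2. With the keratinocyte covariate the sign changed in 6 of 108 genes named, Cdh1 (-0.023) and Pkp1 (-0.18), which had passed, and Il33, Mmrn1, Pdpn and Nr1d1, which had not; the cause was not tested. Signs also changed in 4 genes with the share covariate, 3 with the length offset and at most 2 under any other setting, none of them past the threshold in either fit. Leaving out 1 library moved the log2 difference in totals between 0.60 and 1.39 and that in the share of reads on genes between 1.13 and 2.22, both past the threshold only without ZT13 replicate 5. Whether same-numbered libraries were prepared together is not known from the labels, and these correlations cannot decide it. Same-numbered libraries deviated together with r of -0.126, -0.193, 0.220, 0.281 and -0.021, and only numbers 3 and 4 correlated best with their own. Under the replicate block 56 genes were higher and 2 lower, 56 of the 58 were among the 113, and the exact sign-flip p of the differences in totals (0.90) and shares (1.50) was 0.188 for each. Without replicate 5 of ZT13 the calls were mostly lower genes, 529 of 853, and the depth of the 10 libraries, 4736532 to 42002363 counts, limits what can be said of genes at or near 0.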
